A study of Mus musculus with 3 samples.

Results

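The 9 genes described here encode Wnt ligands of the developing kidney and were measured in kidney rudiments with and without Fgfrl1, a transmembrane receptor of the fibroblast growth factor receptor family. The genes are Wnt9b and Wnt4, which carry the inducing signal, Wnt11, Wnt6 and Wnt7b of the ureteric epithelium, Wnt2b and Wnt5a of stroma and mesenchyme, and Wnt5b and Wnt10a. They were found by the gene name in the scanner files, which gave 11 probes of the 41174 probes measured, 1 probe for each of 7 genes and 2 probes each for Wnt6 and Wnt5b. The question was how each ligand differed between Fgfrl1-/- and wildtype rudiments, and whether the inducing, ureteric and stromal ligands differed in the same way.

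Both groups were C57BL/6 mouse embryos at E12.5, littermates of the genotypes Fgfrl1-/- and wt, with no other allele or agent in the labels. Each of 3 arrays, read in 2 colours, held 1 pool of 6 to 9 Fgfrl1-/- rudiments labelled with Cy3 and 1 pool of wildtype rudiments labelled with Cy5. The genotype is that of the whole embryo and names no compartment of the kidney. No array had the dyes exchanged, so dye and genotype cannot be told apart. In pooled tissue, fewer cells of a type and less RNA per cell cannot be told apart either.

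Wnt ligands are secreted, lipid-modified glycoproteins that bind Frizzled receptors. In the canonical branch they stabilize β-catenin, which acts with Tcf and Lef proteins on its target genes. In the metanephric kidney the ureteric bud secretes Wnt9b, which induces the surrounding mesenchyme to form a pretubular aggregate and to switch on Wnt4. Wnt4 then acts on the aggregate itself to drive its conversion into an epithelial renal vesicle. Wnt11 is made at the ureteric tips and takes part in branching, Wnt6 is made in the ureteric bud, and Wnt7b in the ureteric stalk is needed for the medulla.

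All values below are log2 ratios of Fgfrl1-/- over wildtype, or normalized intensities, which are spot brightnesses in arbitrary units after background correction and normalization and which include an added offset of 50. The intensities of a probe can be compared between pools but not with those of another probe. Sums over a list, given below, are likewise compared between pools only, and the brightest probes weigh most in them. On an array, 57.1% to 80.2% of probes passed the scanner software's test for a signal well above background with Cy3, and 60.9% to 65.0% with Cy5. The ratios of arrays 2 and 3, which lay on the same slide, correlated over all probes at r = 0.71, whereas array 1, on another slide, correlated at 0.11 with array 2 and at 0.22 with array 3. The targeted gene had log2 ratios of -1.21, -1.51 and -1.83 for its representative probe, a mean of -1.52 ± 0.31 (SD, n = 3, limma adjusted p = 0.0332), and whether this probe lies in the deleted part was not determined here.

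Part of the ligands fell in Fgfrl1-/- rudiments, and none was called higher. Wnt4, Wnt11 and 1 of the 2 Wnt6 probes were lower in Fgfrl1-/- rudiments, which made 3 of 11 member probes below an adjusted p of 0.05 (limma, Benjamini-Hochberg over all 41174 probes), compared with 0.687% of all probes, of which 0.398% were lower and 0.289% higher. Wnt9b was above its wildtype level on all 3 arrays but missed the threshold, and no probe of Wnt7b, Wnt2b, Wnt5a, Wnt5b or Wnt10a was called. Over all probes the median log2 ratio was 0.0037. The ratio had the same sign on all 3 arrays for 8 of 11 member probes, compared with 38.3% of all probes. The normalized intensities of the groups did not overlap for 7 of 11 member probes, 4 lower and 3 higher, whereas this was so for 14.0% of all probes, 7.22% lower and 6.79% higher.

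**Figure D1:**
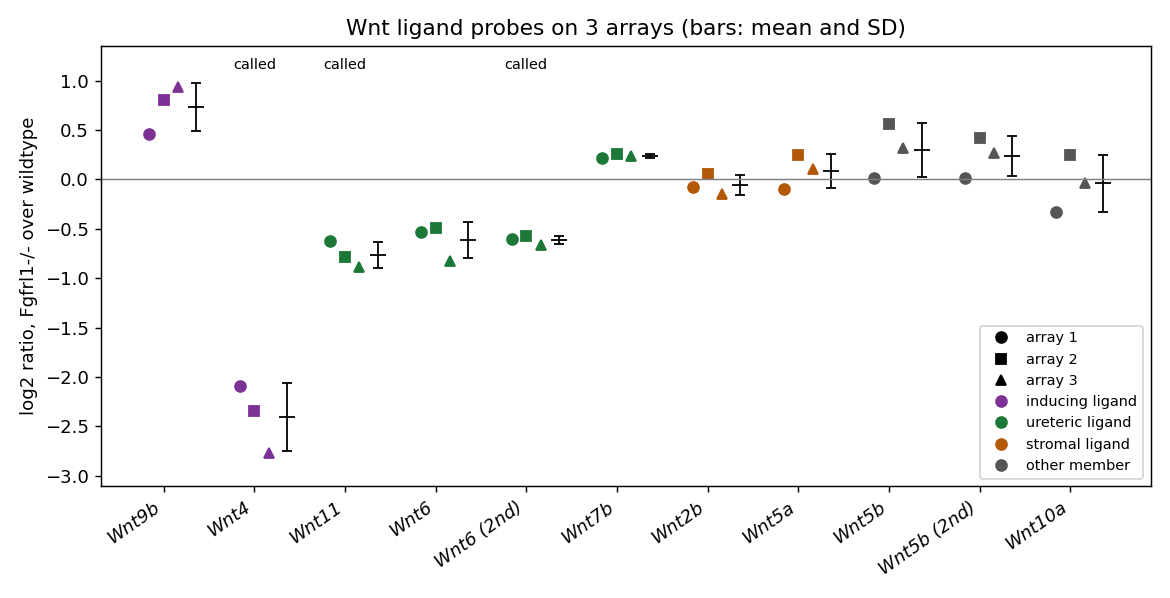
The log2 ratio of Fgfrl1-/- over wildtype (y axis) is plotted for the 11 member probes (x axis), with 1 symbol for each of the 3 arrays, colours for the ligand classes, and a bar for the mean with its SD. Wnt4 lies between -2.77 and -2.09, Wnt11 and both Wnt6 probes lie below 0 on every array, and Wnt9b and Wnt7b lie above 0 on every array. The word "called" marks probes with a limma adjusted p below 0.05.

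Wnt4, the mesenchymal signal of the renal vesicle, was the member that fell most. Its normalized intensity was 1115, 1060 and 1142 in the wildtype pools and 261, 209 and 167 in the Fgfrl1-/- pools of arrays 1, 2 and 3. Each wildtype pool was several times as bright as each Fgfrl1-/- pool, and the groups were far apart. The log2 ratios of -2.09, -2.34 and -2.77 gave a mean of -2.40 ± 0.34 (SD, n = 3, 95% interval -2.75 to -2.06), a 5.29-fold lower level in Fgfrl1-/- rudiments (limma adjusted p = 0.0201). This interval and those below are limma's moderated ones. Their variance draws on all probes, so they do not follow from the SD beside them. Only 3 probes of the whole array had a lower mean ratio. On every array both dyes gave a signal well above background. The direction held under all 16 other ways of processing, with means between -3.05 and -2.22, and the call held in 11 of them. Several of these ways leave the mean of -2.40 as it is, so the direction could not change in them. The call was lost without the normexp offset (adjusted p = 0.249), with the ratios of the scanner software (0.159), with 1 value per slide (0.179), without array 2 (0.198) and without array 3 (0.134), all from limma with Benjamini-Hochberg adjustment.

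The Wnt4 probe and the Wnt5a probe, each 60 bases long, are the member probes whose genome positions span far more than their own length, which places them across a splice junction. Their sequences are shown as what was hybridized for an inducing and a stromal ligand with unlike ratios. The Wnt4 probe spans 569 bases of chromosome 4 (mm8, chr4:136567851-136568419, plus strand), and the Wnt5a probe spans 3963 bases of chromosome 14 (mm8, chr14:27345426-27349388, plus strand). Capitals mark the longest run of bases that both probes hold.
Wnt4 probe: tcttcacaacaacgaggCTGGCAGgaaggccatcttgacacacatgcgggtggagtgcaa
Wnt5a probe: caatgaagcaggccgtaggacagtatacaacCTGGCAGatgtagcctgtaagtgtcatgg
This run is 7 bases long and starts at base 18 of the Wnt4 probe and at base 32 of the Wnt5a probe, so the probes of these relatives share no longer stretch.

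Wnt9b, the ureteric ligand that acts before Wnt4, had higher measured values in Fgfrl1-/- rudiments. Its normalized intensity was 399, 343 and 323 in the wildtype pools and 549, 597 and 618 in the Fgfrl1-/- pools. The lowest Fgfrl1-/- pool was above the highest wildtype pool, so the groups did not overlap. The log2 ratios were 0.46, 0.80 and 0.94, with a mean of 0.73 ± 0.25 (SD, n = 3, 95% interval 0.46 to 1.004), a ratio of 1.66 (limma adjusted p = 0.0661). The adjusted p fell below the threshold in 3 of 16 other ways of processing, namely without array 1 (1.7e-05), with the channels fitted separately (0.0307) and with 1 probe for each RefSeq gene (0.0324). The mean stayed between 0.58 and 0.87 in all 16, several of which leave it as it is. Before normalization the spot on array 2 had a median brightness of 381.5 over a background of 28 in the Fgfrl1-/- channel and of 457.5 over 46 in the wildtype channel, so that on this array the sign of the ratio depends on the correction for the dye. The probe lies on chromosome 11 (mm8, chr11:103543658-103543717, minus strand).

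Within each array, Wnt4 was lower than Wnt9b with differences of -2.55, -3.15 and -3.71 on the log2 scale and a mean of -3.14 ± 0.58 (SD, n = 3). This was the widest gap among the 36 pairs of members that were compared, each by its representative probe, which is the brighter where a gene has 2. Wnt4 had the lower log2 ratio on all 3 arrays in each of its 8 pairs, with a mean difference of -1.64 from Wnt11 and of -1.79 from Wnt6. Relative to the median of the other members it differed by -2.47 ± 0.41 (SD, n = 3). An exact 2-sided sign-flip permutation test over 3 arrays cannot give a p below 0.25, which is the value for every pair that kept its sign (adjusted over 36 pairs, p = 0.281), so these differences are given by their size and SD.

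**Figure D2:**
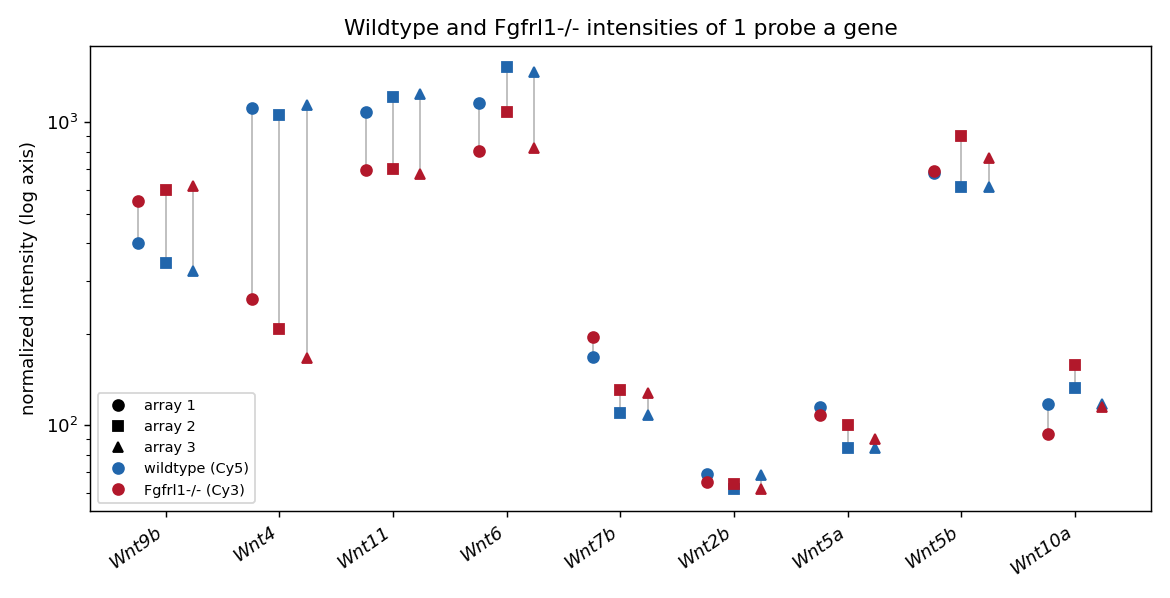
Normalized intensity (y axis, log scale) of 1 probe for each of the 9 genes (x axis) in the wildtype pools (blue) and the Fgfrl1-/- pools (red), with lines joining the 2 pools of an array and levels comparable only within a gene. For Wnt4 the wildtype pools lie between 1060 and 1142 and the Fgfrl1-/- pools between 167 and 261, whereas for Wnt9b the Fgfrl1-/- pools lie above the wildtype pools.

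Of the 3 ureteric ligands, Wnt11 and 1 probe of Wnt6 fell, and Wnt7b was not called. Wnt11, the ligand of the ureteric tip, had an intensity of 1078, 1207 and 1243 in the wildtype pools and 698, 701 and 674 in the Fgfrl1-/- pools. The highest Fgfrl1-/- pool was well below the lowest wildtype pool. The log2 ratios were -0.63, -0.78 and -0.88, with a mean of -0.76 ± 0.13 (SD, n = 3, 95% interval -0.97 to -0.56), a 1.70-fold lower level (limma adjusted p = 0.0408). The direction held in all 16 other ways of processing, several of which leave the ratio as it is. The call held in only 8 of the 16, and the limma adjusted p reached 0.473 without array 3. Its probe lies at chr7:98728667-98728727 (mm8, plus strand).

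Wnt6, another ligand of the ureteric bud, was measured by 2 probes at chr1:74718094-74718153 and chr1:74717994-74718059 (mm8, plus strand). The brighter probe had intensities of 1158, 1521 and 1463 in the wildtype pools and 802, 1082 and 824 in the Fgfrl1-/- pools. The dimmer probe had intensities of 703, 692 and 621 in the wildtype pools and 461, 465 and 393 in the Fgfrl1-/- pools. With both probes the groups did not overlap. The mean log2 ratio was -0.62 ± 0.18 for the brighter probe (SD, n = 3, limma adjusted p = 0.0661) and -0.61 ± 0.044 for the dimmer one (limma adjusted p = 0.0422), so the probes gave the same size and differed in their spread and in the call. The call of the dimmer probe held in 4 of 14 other ways of processing. Wnt11 and Wnt6 differed by -0.15 ± 0.13 between their log2 ratios (SD, n = 3), which is about their spread.

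Wnt7b, the ligand of the ureteric stalk, had intensities of 168, 110 and 108 in the wildtype pools and 195, 131 and 128 in the Fgfrl1-/- pools. The groups overlapped, and array 1 was brighter in both channels, but after normalization the Fgfrl1-/- pool was the brighter on each array. Before it, the spot on array 2 had a median brightness of 69 over a background of 22 in the Fgfrl1-/- channel and of 116 over 51 in the wildtype channel, so that here too the sign depends on the correction for the dye. The log2 ratios of 0.22, 0.26 and 0.24 gave a mean of 0.24 ± 0.020 (SD, n = 3, limma adjusted p = 0.181), and the adjusted p was 0.0332 without array 1. The ratio of Wnt11 minus that of Wnt7b had a mean of -1.001 ± 0.14 (SD, n = 3) and was below 0 on every array, so a ureteric ligand of the tip and one of the stalk had ratios on opposite sides of 0.

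Markers of the ureteric compartment were read beside these ligands. Of 10 ureteric tip genes, 3 fell and 0 rose at an adjusted p below 0.05 (limma), and their median log2 ratio was -0.42. Those that fell were Etv4, a transcription factor downstream of Ret (-1.05 ± 0.27), Slco4c1, an organic anion transporter (-1.02 ± 0.23), and Spry1, an inhibitor of receptor tyrosine kinase signaling (-0.94 ± 0.15; SD, n = 3 each). A further probe of Slco4c1 was at -0.38 with a limma adjusted p of 0.105. The summed intensity of the tip list was 7005 to 7515 in the Fgfrl1-/- pools and 9402 to 10318 in the wildtype pools, and its defining gene Ret was, with either dye, not well above background on any array. Of 12 genes of the ureteric epithelium at large, 1 fell, Lhx1, and 1 rose, Cdh16, a kidney cadherin (1.11 ± 0.31; SD, n = 3). Lhx1 is also counted below among the nephron induction genes, so its fall cannot be assigned to the ureteric epithelium. The ureteric list is described with Lhx1 in it. Their median log2 ratio was 0.35, and their summed intensity was 49287 to 62868 in the Fgfrl1-/- pools and 39119 to 46298 in the wildtype pools. With median centring in place of loess, Cdh16 was at 0.74 and not called (limma adjusted p = 0.226), and the median of the epithelial list was 0.044. The part of these markers in the ratios of Wnt11, Wnt6, Wnt7b and Wnt9b was not tested.

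No difference between the groups was detected for either stromal ligand. Wnt2b, a ligand known from the stroma around the bud, was, with either dye, not well above background on any array (intensities of 61.8 to 65.1 in the Fgfrl1-/- pools and 61.5 to 68.9 in the wildtype pools), so its probe at chr3:105073969-105074028 (mm8, minus strand) gives no fold. Wnt5a, a mesenchymal ligand of the non-canonical branch, had intensities of 115, 84.5 and 84.2 in the wildtype pools and 108, 100.3 and 90.4 in the Fgfrl1-/- pools. The groups overlapped, and the sign changed between arrays. Its mean log2 ratio was 0.085 ± 0.17 (SD, n = 3, 95% interval -0.14 to 0.31, limma adjusted p = 0.737). The Wnt5a probe was dim, with Fgfrl1-/- medians of 50 over a background of 21.5 on array 2 and 47.5 over 23 on array 3. With a normexp offset of 0 its mean was 0.21 (limma adjusted p = 0.669). Beside this, 2 of 10 stromal marker genes rose and 0 fell, Pdgfra, a receptor of mesenchymal cells (1.02 ± 0.093), and Col1a1, a fibrillar collagen (0.84 ± 0.18; SD, n = 3 each), while other probes gave 0.17 for Pdgfra and 0.95 and 0.038 for Col1a1 and were not called. The paper's quantitative PCR did not show the rise of Col1a1 at E12.5. Among the 10 stromal genes, 3 had a mean below 0, the lowest at -0.48. The unadjusted p (limma) was below 0.05 for 6 higher genes and 1 lower gene. The summed intensity of the stromal list was 134382 to 164613 in the Fgfrl1-/- pools and 97799 to 100549 in the wildtype pools, and its part in the ratio of Wnt5a was not tested. With median centring in place of loess, 0 stromal markers were called (limma adjusted p = 0.213 for Pdgfra and 0.852 for Col1a1), and the list median was 0.012 in place of 0.39.

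Wnt5b, a non-canonical relative of Wnt5a, had intensities of 681, 612 and 612 in the wildtype pools and 689, 903 and 760 in the Fgfrl1-/- pools for its brighter probe. The groups did not overlap, but array 1 was at almost equal brightness in both channels. Before normalization the Fgfrl1-/- median was 584 over a background of 25 on array 2 and 706 over 24.5 on array 3. The wildtype median was 882.5 over 49 and 808.5 over 47, so on both arrays the sign depends on the correction for the dye. The mean log2 ratio was 0.30 ± 0.27 (SD, n = 3, limma adjusted p = 0.305), and 0.23 ± 0.20 for the dimmer probe (limma adjusted p = 0.337). Both Wnt5b probes were called in 1 of their other ways of processing, the fit without array 1. Wnt10a, a canonical ligand, had log2 ratios of -0.33, 0.25 and -0.04, with overlapping intensities and a limma adjusted p of 0.931.

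In the order of their mean log2 ratios the detected members ran from Wnt4 over Wnt11, Wnt6, Wnt10a, Wnt5a, Wnt7b and Wnt5b to Wnt9b. The neighbours Wnt4 and Wnt11 differed by far more than the SD of their difference. Wnt11 and Wnt6, Wnt6 and Wnt10a, Wnt10a and Wnt5a, Wnt5a and Wnt7b, and Wnt7b and Wnt5b differed by less than 2 SD, and Wnt9b exceeded Wnt5b by 0.44 ± 0.19 (SD, n = 3). The inducing ligands thus held both ends of the order.

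The promoters of Wnt4, Wnt11 and Wnt9b are shown because Wnt4 and Wnt11 fell and Wnt9b did not. They are the 250 bases before the annotated start, 5′ to 3′ on the strand of the gene, from RefSeq for GRCm38.p6, which is a different build from that of the probe positions. They lie at chr4:137277385-137277634 (plus strand), chr7:98834862-98835111 (plus strand, the first of 2 Wnt11 starts) and chr11:103749822-103750071 (minus strand). Capitals mark matches to the motifs searched on both strands.
Wnt4 promoter: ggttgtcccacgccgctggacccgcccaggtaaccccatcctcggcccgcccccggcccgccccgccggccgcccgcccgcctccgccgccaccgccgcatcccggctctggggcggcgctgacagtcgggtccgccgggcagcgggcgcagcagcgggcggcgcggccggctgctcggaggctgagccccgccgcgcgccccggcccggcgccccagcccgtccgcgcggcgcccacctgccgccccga
Wnt11 promoter: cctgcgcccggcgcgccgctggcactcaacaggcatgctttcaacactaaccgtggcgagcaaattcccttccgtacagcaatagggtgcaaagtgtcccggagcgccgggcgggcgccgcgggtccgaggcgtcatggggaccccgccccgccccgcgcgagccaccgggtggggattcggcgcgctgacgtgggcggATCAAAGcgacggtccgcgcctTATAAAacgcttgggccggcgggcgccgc
Wnt9b promoter: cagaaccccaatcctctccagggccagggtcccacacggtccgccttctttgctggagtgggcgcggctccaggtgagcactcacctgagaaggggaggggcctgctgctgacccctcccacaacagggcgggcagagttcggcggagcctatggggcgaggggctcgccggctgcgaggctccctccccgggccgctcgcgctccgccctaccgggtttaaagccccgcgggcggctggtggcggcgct
The letter strings searched were 4 that Tcf and Lef proteins are known to bind and the TATA box. Of all 32851 promoters, 3.21% hold CTTTGAT, 4.46% hold CTTTGAA, 5.03% hold CTTTGTT, 3.20% hold CTTTGTA and 12.4% hold TATAAA, and the matches marked here do not overlap. In the Wnt11 promoter CTTTGAT stands on the reverse strand, 51 bases before the start, and the TATA box string 29 bases before it. Of the 9 promoters found for 6 of the member genes, 2 hold CTTTGAT, this one and 1 of the 3 Wnt5b promoters, 1 holds the TATA box string, and none holds the other 3 strings. The Wnt4 and Wnt9b windows hold none of the 5. The Wnt4 window is 85.2% G or C, the Wnt11 window 70.8% and the Wnt9b window 72%, whereas the median of all promoters is 52.4%. The 9 member windows ran from 53.2% to 85.2%, so a share above that median is not particular to Wnt4.

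Among the other genes of the Wnt pathway, those that fell were secreted antagonists and effectors, and none of the 10 further ligands, the secretion genes or the receptors was called. The share called over 1 probe for each of 27745 gene names was 0.825% (0.483% lower and 0.342% higher). At an unadjusted p below 0.05 (limma), the share over all probes was 15.9%. Of 10 other Wnt ligand genes, 0 were called in either direction (limma; 1 at an unadjusted p below 0.05), with a median log2 ratio of 0.038. Most of these ligands were dim: Wnt8a and Wnt10b were not well above background on any array, Wnt1, Wnt3, Wnt3a, Wnt7a and Wnt16 on at most 1 array with either dye, and the 3 ligands left without dim probes had a median of 0.22. Of 6 genes that modify and secrete Wnt proteins, 0 were called (median 0.035; 3 at an unadjusted p below 0.05), and of 19 Frizzled, Lrp, Ror, Ryk, Ptk7 and Lgr receptors, 0 were called (median -0.025, range -1.45 to 0.45; 6 at an unadjusted p below 0.05). The lowest value was that of the Frizzled receptor Fzd10, named here after its values were seen, with log2 ratios of -0.84, -1.80 and -1.71, groups that did not overlap and a limma adjusted p of 0.0552. Under median centring, the trended robust fit, separate channels and 1 probe for each RefSeq gene, 1 receptor each was called lower (limma), and without array 1 there were 7 called lower and 2 higher.

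Of 14 secreted antagonists, 3 fell and 0 rose, with a median log2 ratio of -0.057. At an unadjusted p below 0.05 (limma), 3 were lower and 4 higher, and Dkk4 and Cer1 were not well above background on any array. Dkk1, which blocks the co-receptor Lrp6, had log2 ratios of -2.36, -2.35 and -2.05 (limma adjusted p = 0.00653), and its other probe had a mean of -1.52. Frzb, a soluble Frizzled-like protein, had a mean of -0.94 ± 0.019, and Notum, an enzyme that removes the lipid from Wnt proteins and that the array lists under an older name, had a mean of -0.92 ± 0.074 and was well above background on only 1 array in the Fgfrl1-/- channel (SD, n = 3 each). Of 20 canonical effectors and feedback targets, 3 fell and 0 rose, with a median of 0.00094. At an unadjusted p below 0.05 (limma), 6 were lower and 3 higher. Those called were Sp5, a transcription factor induced by Wnt signals (-1.66 ± 0.57), Lef1 (-1.13 ± 0.29) and Tcf7 (-0.69 ± 0.029), both partners of β-catenin (SD, n = 3 each). A further Lef1 probe gave -0.90 and was called (limma adjusted p = 0.0408). The remaining Lef1 probe gave 0.026 but was, with either dye, not well above background on any array. The other probe of Tcf7 gave -0.53 and was not called.

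Most of the listed genes of nephron induction fell with Wnt4. Of 12 such genes, 8 fell and 0 rose at an adjusted p below 0.05 (limma), and their median log2 ratio was -0.996. The list was made with earlier results of these data known, and the genes called are also in the study's own list of lowered genes. The share called is therefore a description and not independent support. Among the genes called, the 5 that fell most were Fgf8, a growth factor of the aggregate (-2.05 ± 0.34), Lhx1, a transcription factor of the renal vesicle (-1.72 ± 0.082), the Notch target genes Hes5 (-1.39 ± 0.19) and Hey1 (-1.23 ± 0.15), and the Notch ligand Dll1 (-1.08 ± 0.34; SD, n = 3 each). The Notch ligand Jag1, named here after its values were seen, had log2 ratios of -0.72, -1.52 and -1.58 and missed the threshold (limma adjusted p = 0.0604). The other Fgf8 probe was at -0.39 and not called (limma adjusted p = 0.0881). It was well above background on only 1 array in the Fgfrl1-/- channel. The other Lhx1 probe was at -1.88. Of 11 genes of the cap mesenchyme, from which the aggregate forms, 2 fell and 0 rose, Uncx (-1.15 ± 0.010) and Cited1 (-0.78 ± 0.19; SD, n = 3 each), both transcriptional regulators, with a median of -0.11. The other Uncx probe was at -0.43 and not called. The summed intensity of the cap mesenchyme list was 26707 to 32237 in the Fgfrl1-/- pools and 35115 to 38502 in the wildtype pools, and its part in the ratio of Wnt4 was not tested.

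**Figure D3:**
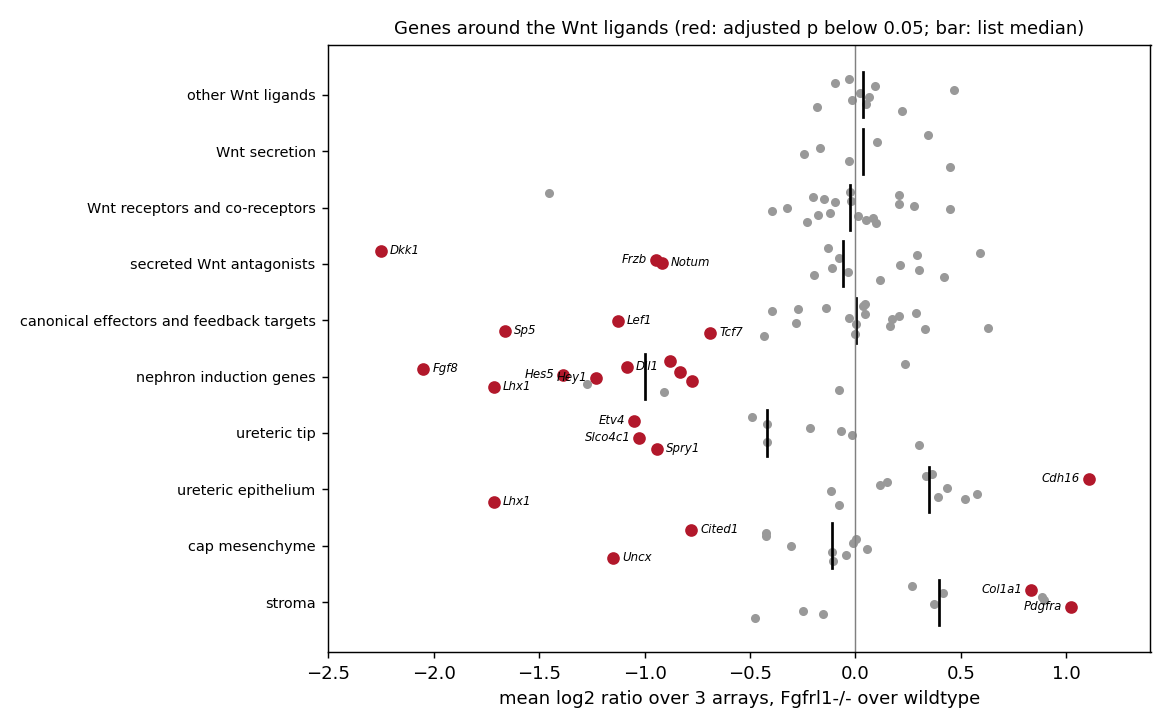
The mean log2 ratio over 3 arrays (x axis) of the representative probe of each gene is plotted for 10 lists (y axis), with red points for a limma adjusted p below 0.05, grey points for other genes, a bar for the list median, and names on at most 5 called genes in a list. The nephron induction genes have a median of -0.996, while the medians of the other Wnt ligands, the secretion genes and the receptors lie within 0.04 of 0.

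Markers of other cells that a dissection could carry were called in neither direction: 6 genes each of steroidogenic tissue, endothelium, erythroid cells, macrophages and neural cells and 5 of surface ectoderm. Their medians lay between -0.10 and 0.15, apart from the macrophage list at 0.48. At an unadjusted p below 0.05 (limma), 5 macrophage genes and 1 gene of surface ectoderm were higher, and 1 erythroid and 1 neural gene were lower. Over all probes, 15.9% were below this unadjusted threshold.

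The genes whose 3 ratios lay closest to those of Wnt4, by Euclidean distance among 16367 gene names well above background in wildtype, were Slc32a1, Egr1, Krt23, Fgf8 and Dkk1. Slc32a1, a vesicular transporter of inhibitory transmitters, was at a distance of 0.37 with a mean log2 ratio of -2.54. Egr1, an immediate early transcription factor, was at 0.67 (mean -2.13), Krt23, a keratin, at 0.67 (-2.68), Fgf8 at 0.68 (-2.05) and Dkk1 at 0.77 (-2.25). The distance was computed over 3 arrays and is a description.

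**Figure D4:**
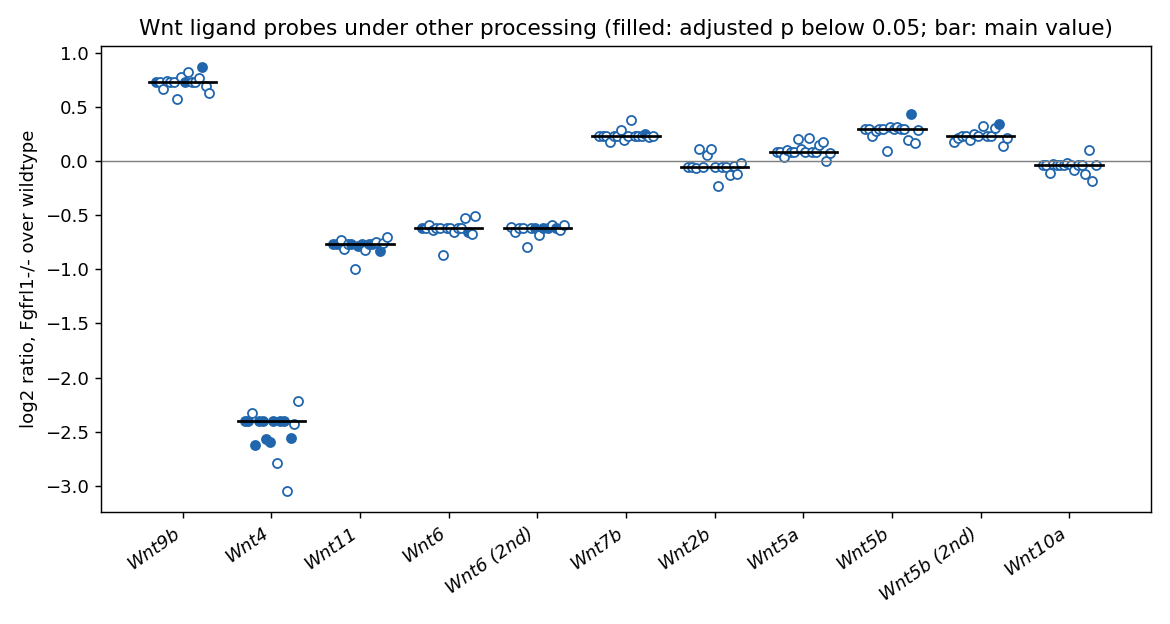
The mean log2 ratio of each member probe (y axis; probes on the x axis) is plotted as a bar for the value reported and as 1 point for each other way of processing, filled where the limma adjusted p was below 0.05. The points of Wnt4 lie between -3.05 and -2.22 and those of Wnt9b between 0.58 and 0.87, and filled and open points stand side by side for Wnt4, Wnt11 and Wnt9b.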

How the data were processed

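Per the file headers, the scanner files were written by Agilent Feature Extraction 9.5.3.1 (array 1) and 10.5.1.1 (arrays 2 and 3). They hold, as deposited, median and local background intensities per spot in each channel and the software's log10 ratios. A table of log2 ratios, deposited by the authors and made with R and Bioconductor, has the sign of Fgfrl1-/- over wildtype, and its further steps are not given in the sources used here. Here, median signals were background-corrected by normexp (offset 50, limma 3.58.1, R 4.3.3) and normalized by loess within arrays. Control spots and outlier-flagged spots were dropped, and spots of a probe were averaged. The log2 ratio of each of 41174 probes was fitted with an intercept only (lmFit, eBayes) and tested against 0, 2-sided, with Benjamini-Hochberg adjustment over all probes and a threshold of 0.05. The 2 pools of an array are thereby paired. Channel intensities come from Aquantile scaling, which leaves the ratios unchanged. The fit was tested on simulated data with independent arrays. That setting lacks the shared slide of arrays 2 and 3, so it says nothing on calls under such dependence. The number of arrays limits the precision.

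The members, gene lists and tests were chosen with earlier results of these data known, and the lists come from general knowledge. Named genes were all member probes, up to 5 called genes per list and direction, and the 5 genes closest to Wnt4. A list gene is taken by its brightest probe. The alternatives were no background subtraction, no offset, the scanner software's ratios, median centring, Aquantile scaling, dim probes left out, outlier spots kept, 1 probe per gene name, a trended robust fit, separate channels, the authors' log2 table, 1 value per slide and each array left out. A further one, 1 probe for each RefSeq gene, was chosen after seeing the data. Some alternatives leave the log2 ratios of the members unchanged, so agreement in direction was fixed in them. These are Aquantile scaling, dim probes left out, outlier spots kept, 1 probe per gene name or RefSeq gene, the trended robust fit and separate channels. Aquantile scaling leaves the calls unchanged too. Probe positions are those on mm8 in the files, and 1 listed gene, Tcf7l1, was not found by name.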

Additional observations from a re-analysis of the deposited data

How the results depend on the processing

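The Wnt4, Wnt11, Wnt9b and both Wnt6 log2 ratios kept their sign under every alternative run, but calls did not. Against 3 member probes and 14 of 81 Wnt pathway and nephron induction genes (listed genes, for short) called, an offset of 0, the scanner software's ratios and 1 value per slide each gave 0 and 0, and 0 of all probes (4852, 6118 and 3449 at an unadjusted p below 0.05, limma). Median centring gave 1 member probe, dim probes left out gave 1 member probe and 7 listed genes, and the authors' log2 table gave 1 and 8. Leaving out 1 array gave 0 to 8 member probes and 0 to 43 listed genes: 8 and 43 without array 1, and 0 without array 2 or 3, which leaves 1 array per slide. Over all probes, 283 calls became 189 without background subtraction, 93 with median centring (97.8% lower, against 58.0%) and 41 of 24904 without dim probes. Separate channels gave 460 (4 member probes), with both pools of an array linked by a fitted correlation of 0.45 within spots. There were 36 calls with the authors' table, 723 of 19754 with 1 probe for each RefSeq gene, and 7666 without array 1. Without array 2 (3711 unadjusted) or array 3 (3141) there were 0. The difference of Wnt4 from the median of the other members was -2.89 with an offset of 0, -3.07 with the scanner ratios, and -2.70 to -2.30 with 1 array left out. Wnt2b, not above background, changed sign to 0.11 without background subtraction, 0.059 with median centring and 0.11 in the authors' table, and Wnt10a to 0.10 without array 1 (-0.18 to 0.10 with 1 array left out). Of 171 member values computed again, 136 kept direction and side of the threshold, 23 lost the call, 8 gained it and 4 changed sign. The 136 include values from alternatives that leave the ratio unchanged. Median centring moved the median of probes above background by -0.14, so ratios there are relative to it, and Col1a1 went to 0.29. The slide as a random block could not be fitted. The cause of these changes was not tested.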
